A study of Mus musculus with 18 samples.

Results

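The mRNAs described here are 10 of the 13 protein-coding messages of the mouse mitochondrial genome, followed through polysome gradients of embryonic stem cells. They were chosen by name, as messages that cytosolic ribosomes do not read, out of 51467 genes in the count table. They are mt-Nd1, mt-Nd2, mt-Nd4, mt-Nd5 and mt-Nd6 (subunits of complex I), mt-Cytb (cytochrome b of complex III), mt-Co1, mt-Co2 and mt-Co3 (the catalytic core of cytochrome c oxidase, complex IV) and mt-Atp6 (a subunit of ATP synthase, complex V). The other 3 mitochondrial messages, mt-Nd3, mt-Nd4l and mt-Atp8, are given beside them. The cells were V6.5 mouse ESCs, either wild-type (WT) or with Ddx6 knocked out (Ddx6 KO). DDX6 is a helicase of translational repression and mRNA decay. The medium of both genotypes held 15% serum, LIF and the 2i inhibitors. Cytosolic translation was arrested with cycloheximide at 100 ug per ml for 2 min. Each lysate was separated on a sucrose gradient into monosomes, low polysomes with 2 to 4 ribosomes and high polysomes with at least 4. With 3 gradients of each genotype this made 18 libraries, 3 for each of 6 groups. The KO group held 2 clones, of which clone 1 gave gradient 1 and clone 2 gave the other two. The sources do not state whether the WT gradients, or the gradients of KO clone 2, came from separate cultures, so the p-values measure the spread between gradients, which may be technical and in KO includes the difference between clones.

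Mitochondrial mRNAs are transcribed from the circular genome inside the organelle as long precursors and cut apart mainly at the tRNAs that lie between them. Most of the messages are polyadenylated there, and mitochondrial ribosomes read all of them. The proteins they encode are inserted into the inner membrane and assembled with partners that are encoded in the nucleus and made on cytosolic ribosomes. A polysome gradient sorts RNA by the mass of the complex it is in, so a mitochondrial mRNA found in a heavy fraction is not there by cytosolic translation, and its level there is a reading of RNA that reached the fraction in another way.

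The libraries were made with a 3′ end kit, so reads are expected near the end of each message, though where they lie was not tested. The last 30 bases of the 10 messages are shown for that reason, 5′ to 3′ in the sense direction, from the GENCODE transcripts of the GRCm38 (mm10) build, with the stop codon in capitals. A single capital T marks messages whose stop codon is completed only by the poly(A) tail.
mt-Nd1: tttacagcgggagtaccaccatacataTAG
mt-Nd2: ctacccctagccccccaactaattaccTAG
mt-Nd4: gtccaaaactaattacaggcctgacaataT
mt-Nd5: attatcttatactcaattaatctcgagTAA
mt-Nd6: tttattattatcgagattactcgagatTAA
mt-Cytb: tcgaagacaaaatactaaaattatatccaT
mt-Co1: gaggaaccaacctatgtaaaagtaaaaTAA
mt-Co2: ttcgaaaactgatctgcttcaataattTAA
mt-Co3: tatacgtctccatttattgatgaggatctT
mt-Atp6: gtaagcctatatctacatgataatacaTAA

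All lie on chromosome M, and mt-Nd6 is the one that reads from the minus strand. The annotated ends of mt-Nd5 (11742 to 13565, plus strand) and mt-Nd6 (13552 to 14070, minus strand) face each other and overlap by 14 bases. The reads were counted by strand, so this overlap does not mix the pair, whereas mt-Atp6 overlaps mt-Atp8 by 43 bases on the same strand, where a read that touches both is by default assigned to neither. None of the 7 messages with counts overlaps another one on its own strand except mt-Nd4, which shares its first 7 bases with mt-Nd4l.

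Of the 10 messages, 7 were counted and 3 were not. Over all 18 libraries mt-Co2 had 4 counts, mt-Co3 had 3 and mt-Atp6 had 3, while the 7 others had between 13836 (mt-Nd6) and 134288 (mt-Co1). The authors kept reads that aligned to 1 place in the genome, and the nuclear genome holds copies of mitochondrial DNA. Each message was therefore cut into all its windows of 50 bases, the read length, and searched in the annotated transcripts of other genes.

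For mt-Co2, 635 of 635 windows had an identical copy elsewhere, for mt-Co3 734 of 735 and for mt-Atp6 629 of 632. The copies were pseudogenes in a block on chromosome 1 (24611535 to 24616197, minus strand): Gm28661 for mt-Co2, Gm28437 for mt-Co3 and Gm10925 for mt-Atp6. The last 30 bases of each copy are shown because they are found without a mismatch inside the mitochondrial message. They reach to base 681 of 684 of mt-Co2, to base 783 of 784 of mt-Co3 and to base 678 of 681 of mt-Atp6.
Gm28661: tatttcgaaaactgatctgcttcaataatt
Gm28437: ctatacgtctccatttattgatgaggatct
Gm10925: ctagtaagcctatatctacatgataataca

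The copies themselves were as empty as the messages, with 11 counts for Gm28661, 5 for Gm28437 and 3 for Gm10925. The few counts of these 3 mRNAs therefore cannot be read as their level in the cells. Copies also covered mt-Nd3 (2 counts, 98.0% of windows shared) and mt-Nd4l (0 counts, 98.8% shared). For mt-Atp8 they did not, since it also had 0 counts while none of its 155 windows was shared.

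Among the counted messages, mt-Nd1, mt-Nd6 and mt-Cytb shared no window with another annotated gene. mt-Nd5 shared 7.6% and mt-Nd2 8.2% of their windows, and 80 of the 251 windows in the last 300 bases of mt-Nd2 were among them. mt-Nd4 shared 62.2%, all outside its last 300 bases. mt-Co1 shared 51.1%, and this took in all 251 windows of its last 300 bases, so a read that lies wholly within those bases has no unique place. mt-Co1 still had the most counts of all the messages (134288), and where its reads lie was not tested. Levels of different messages are therefore not comparable with each other, and each one is compared only with itself across fractions and genotypes. The search covered annotated transcripts and not the whole genome, so unannotated copies could have been missed.

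**Figure D1:**
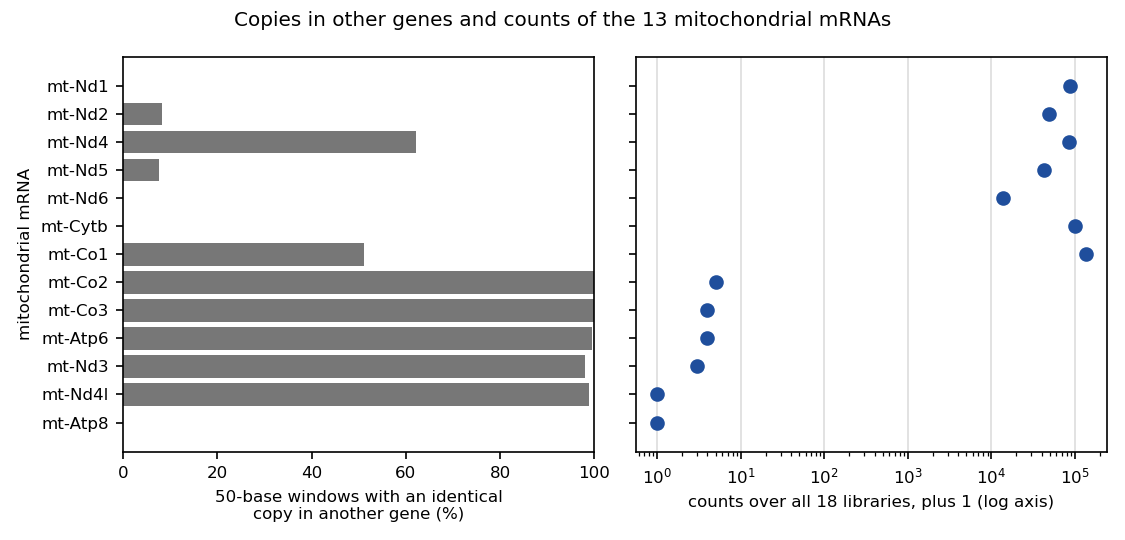
Left, the percentage of 50-base windows of each of the 13 mitochondrial mRNAs that had an identical copy in another annotated gene. Right, the counts of each mRNA summed over 18 libraries, plus 1, on a log axis. The messages that shared 98.0% or more of their windows had at most 4 counts, and mt-Atp8 had none with 0 windows shared.

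Library totals ran from 2543617 counts (WT monosome 1) to 11474550. In the monosome the totals of the genotypes did not overlap. They were 2543617, 4338977 and 4894677 in WT and 7735822, 7811071 and 7537656 in KO. The part of this difference in depth in the results was not tested. Ddx6 RNA stood at 142.8 to 211.7 CPM (counts scaled to library size by TMM) in the 9 WT libraries. In KO it was 55.1 to 82.4 CPM in the 3 clone 1 libraries and 9.64 to 26.6 CPM in the 6 of clone 2. For the protein, the study reported by western blot that DDX6 was absent from both KO clones. All 8 ESC markers (among them Pou5f1, Sox2 and Nanog) passed the filter on low counts, and their summed level was 2294 to 5516 CPM. The summed levels of other cell types' markers were 4.63 to 11.1 CPM for fibroblasts (7 genes), 3.17 to 17.2 CPM for endoderm (5), 4.19 to 7.67 CPM for mesoderm (4) and 25.5 to 68.3 CPM for the neural list (4). The neural sum was mostly Sox1, at 24.5 to 67.8 CPM, near the 19.5 to 57.1 CPM of Pou5f1, and the other neural markers were at most 1.85 CPM. The part of these markers in the results was not tested. All values below are relative to the other RNAs of the same fraction. In bulk lysates, fewer mitochondria and less RNA per mitochondrion cannot be told apart.

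In WT cells the mitochondrial mRNAs were concentrated in the monosome fraction, fell toward the low polysome and fell again toward the high polysome. The summed level of the 10 messages was 16050, 18170 and 11800 CPM in the monosome fractions of WT gradients 1, 2 and 3. The low polysomes held 2234, 3263 and 2920 CPM, and the high polysomes 601.5, 1000 and 1064 CPM. The 3 fractions did not overlap, and every gradient showed the same order. Within a gradient the high polysome was 18.7 ± 7.81-fold below the monosome (SD, n = 3, range 11.1 to 26.7) and the low polysome 5.60 ± 1.57-fold (range 4.04 to 7.18). As a share of all counts the messages took 1.17% to 1.81% in WT monosomes and 0.0584% to 0.110% in WT high polysomes. At the lowest share, 4704 counts in WT high polysome 1, the 95% Wilson interval was 0.05675% to 0.06009%, which covers counting error only.

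The 7 counted messages were above the filter of 3 CPM in every library, so none passed it through the monosome alone. In the limma voom test of WT high polysome against monosome all 7 were lower, where 32.2% of the 12705 genes tested were called lower. Their median log2 change was -4.16 (range -4.79 to -2.93), and the median of all genes was -0.02. For WT low polysome against monosome all 7 were lower (22.8% of genes were called lower and 20.4% higher), with a median of -2.33 and a range of -3.06 to -1.25. For WT high against low polysome all 7 were lower again (32.6% of genes), with a median of -1.84 and a range of -2.21 to -0.87.

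Complex I is the largest group among them. mt-Nd1, a membrane-arm subunit near the quinone site, stood at 3111, 3810 and 2355 CPM in the WT monosome, at 295.3, 428.6 and 381.1 CPM among low polysomes and at 91.16, 153.5 and 157.1 CPM among high polysomes. The 3 fractions did not overlap, and the larger step was the first one. The log2 changes against the monosome were -3.06 (SE 0.20, adjusted p = 5.73e-10) for the low and -4.54 (SE 0.21, adjusted p = 3.556e-13) for the high polysome.

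mt-Nd4, a proton-pumping subunit, showed the greatest fall among the 7 in the high polysome. Its WT levels were 2117 to 3479 CPM in the monosome, 269.4 to 455.5 CPM among low polysomes and 65.6 to 129.1 CPM among high polysomes, with no overlap. The log2 change of high polysome against monosome was -4.79 (SE 0.24, adjusted p = 1.077e-12), a 27.7-fold lower level. Of all genes tested, 0.433% had a lower value. mt-Nd2, another pumping subunit, went from 1138 to 1775 CPM in the monosome to 59.97 to 98.8 CPM in the high polysome, a log2 change of -4.16 (SE 0.21, adjusted p = 1.455e-12).

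mt-Nd5, a further pumping subunit and the longest of the messages (1824 bases), fell least between monosome and low polysome. It stood at 832.3, 1184 and 833.5 CPM in the WT monosome, at 282.3, 429.4 and 509.9 CPM among low polysomes and at 63.29, 83.22 and 117.8 CPM among high polysomes. The fractions did not overlap, but its drop came mostly in the second step. The log2 change was -1.25 (SE 0.22, adjusted p = 0.000108) from monosome to low polysome and -2.21 (SE 0.22, adjusted p = 4.631e-08) from low to high polysome. In the first step 7.76% of all genes had a lower value than mt-Nd5, against 0.323% to 1.93% for the 6 other messages.

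mt-Nd6, a small membrane subunit and the message of the opposite strand, showed the other extreme. It stood at 442.8, 335.8 and 273.3 CPM in the WT monosome, at 79.22, 95.37 and 74.05 CPM among low polysomes and at 40.15, 51.03 and 44.1 CPM among high polysomes. The fractions did not overlap, and the low and high polysome lay close together. It had the least negative log2 change of the 7 in the high polysome against the monosome, -2.93 (SE 0.20, adjusted p = 1.729e-10), and against the low polysome, -0.87 (SE 0.21, adjusted p = 0.001097).

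mt-Cytb, the one complex III subunit made in mitochondria, stood at 2359 to 3853 CPM in the WT monosome, 508.5 to 744.6 CPM among low polysomes and 104.5 to 226.8 CPM among high polysomes. Its log2 change of high polysome against monosome was -4.20 (SE 0.24, adjusted p = 8.633e-12). mt-Co1, the copper and heme subunit of cytochrome c oxidase, stood at 4442, 3729 and 2727 CPM in the WT monosome, at 573.3, 790 and 667 CPM among low polysomes and at 176.8, 331.8 and 290 CPM among high polysomes. Neither message overlapped between fractions, and the log2 change of mt-Co1 from monosome to high polysome was -3.79 (SE 0.24, adjusted p = 4.41e-11). The shortest of the 7, mt-Nd6 (519 bases), and the longest, mt-Nd5, had the 2 smallest falls from monosome to high polysome. From low to high polysome, mt-Nd6 had the smallest fall (-0.87) and mt-Nd5 the largest (-2.21). A relation of the changes to message length was not tested.

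**Figure D2:**
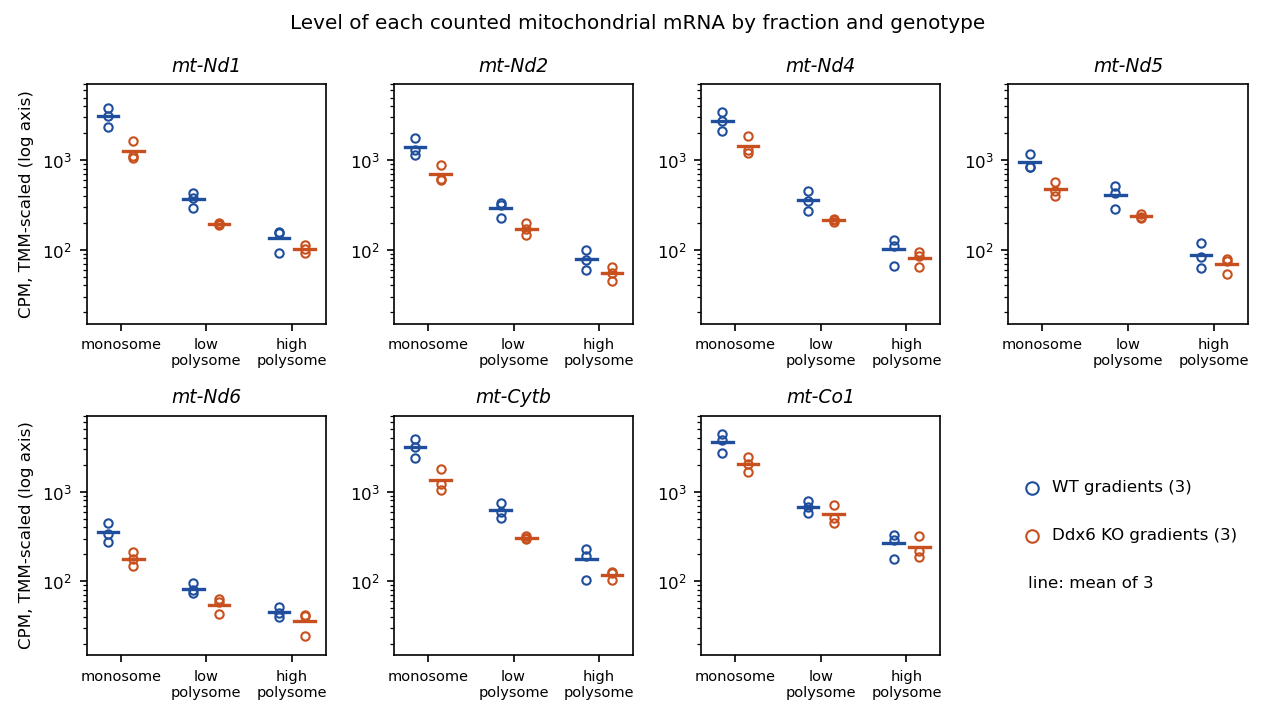
TMM-scaled CPM (log axis) of the 7 counted messages in monosomes, low polysomes and high polysomes. Each circle is 1 gradient (3 WT, 3 Ddx6 KO) and each line the mean of 3. Levels step down from monosome to low to high polysome in both genotypes, with mt-Nd1 falling from a mean of 3092 to 133.9 CPM in WT and from 1282 to 103 CPM in Ddx6 KO.

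Ddx6 KO cells showed the same order of fractions. The summed level of the 10 messages was 6194, 9411 and 6778 CPM in the monosome fractions of KO gradients 1, 2 and 3. The low polysomes held 1861, 1639 and 1687 CPM, and the high polysomes 822.4, 617.6 and 672.4 CPM. The fractions did not overlap. The high polysome was 10.9 ± 3.93-fold below the monosome (SD, n = 3, range 7.53 to 15.2), a range that overlaps the WT one, and the low polysome 4.36 ± 1.24-fold.

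By limma, all 7 counted messages were lower in the KO high polysome than in the KO monosome, where 33.6% of genes were called lower and 35% higher. The median log2 change was -3.48 and the range -4.15 (mt-Nd4) to -2.35 (mt-Nd6). All 7 were lower in the KO low polysome than in the monosome (20.8% of genes, with 20.4% higher), with a median of -2.03 and a range of -2.73 (mt-Nd4) to -0.98 (mt-Nd5). All 7 were lower in the KO high than in the low polysome (28% of genes), with a median of -1.37 and a range of -1.79 (mt-Nd5) to -0.65 (mt-Nd6). The messages at the ends of these ranges were the ones at the ends of the WT ranges, except that mt-Nd1 took the lowest place in the WT low polysome.

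**Figure D3:**
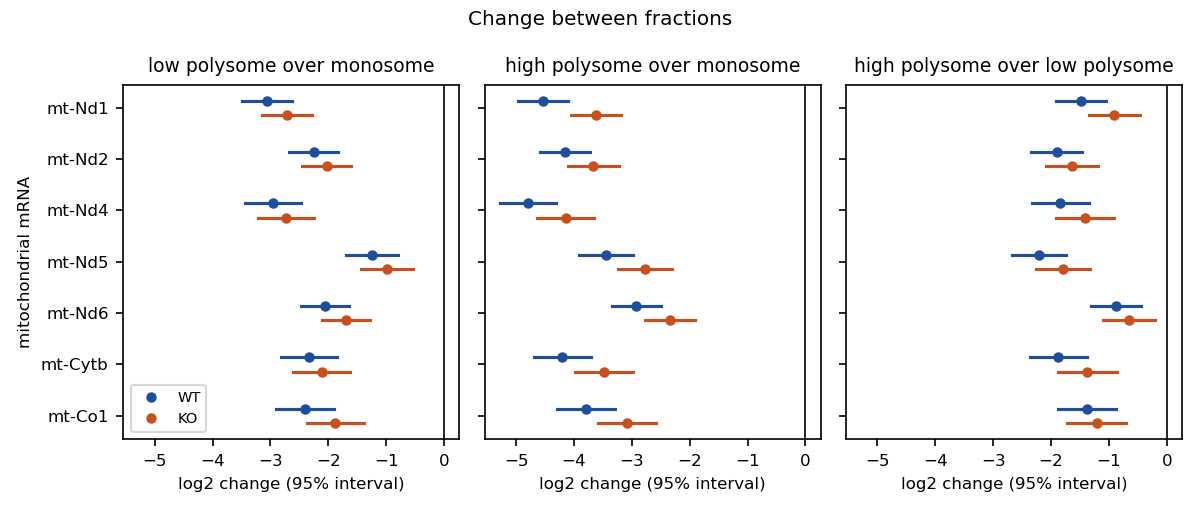
Log2 change with its 95% interval from the limma fit for low polysome over monosome, high polysome over monosome and high over low polysome, in WT (blue) and Ddx6 KO (orange). Every interval lies below 0. mt-Nd5 sits nearest 0 for low polysome over monosome (-1.25 in WT, -0.98 in KO), and mt-Nd6 does so in the panels with the high polysome.

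The make-up of the mitochondrial counts differed between fractions, in the same direction in every gradient for some messages and not for others. mt-Nd5 made up 6.26 ± 0.965% of the counts of the 10 messages in the WT monosome, 14.4 ± 2.65% among low polysomes and 9.97 ± 1.46% among high polysomes (SD, n = 3). In Ddx6 KO the shares were 6.36 ± 0.337%, 13.7 ± 1.63% and 9.80 ± 1.30%. The share of mt-Nd5 was above that of the monosome in 6 of 6 gradients, by 5.66 to 10.4 percentage points among low polysomes and by 1.80 to 5.34 points among high polysomes.

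mt-Nd6 likewise had a higher share in 6 of 6 gradients, by 0.221 to 1.07 points among low polysomes and by 1.08 to 4.50 points among high polysomes, from 2.31% in the WT and 2.40% in the KO monosome. mt-Nd4 lost share in 6 of 6 gradients in both polysome fractions, with differences of -9.18 to -4.40 points in the low and -9.35 to -4.92 points in the high polysome. mt-Nd1 lost share in the low polysome in 6 of 6 gradients, with differences of -7.84 to -4.81 points. In the high polysome it lost share in 5 of 6 gradients and gained 0.471 points in KO gradient 3. mt-Co1 differed between gradients. It made up 23.8 ± 3.62% of the counts in the WT monosome and 29.9 ± 2.99% in the WT high polysome, and in KO 27.4 ± 2.01% and 34.1 ± 6.03% (SD, n = 3). Its share in the high polysome was above that of the monosome in 5 of 6 gradients, with differences from -2.18 points (KO gradient 3) to 12.6 points (WT gradient 2). Among low polysomes it was higher in 4 of 6 gradients, as was mt-Cytb, and mt-Nd2 was higher in 5 of 6. In the high polysome mt-Nd2 and mt-Cytb were higher in 2 of 6. These shares are tied to each other, since a gain by 1 message is a loss by others, and no test was run on them.

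**Figure D4:**
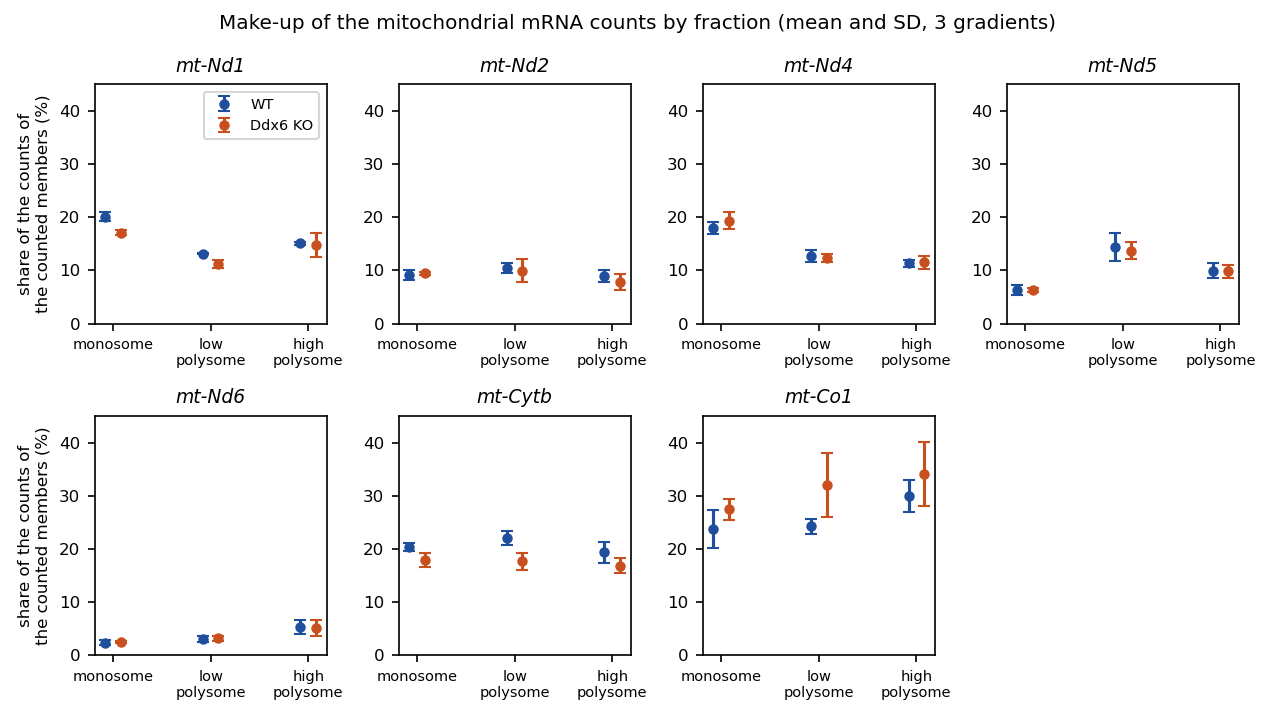
Share of each of the 7 counted messages in the counts of the mitochondrial mRNAs by fraction, as mean and SD of 3 gradients, in WT (blue) and Ddx6 KO (orange). mt-Nd5 peaks in the low polysome (14.4% in WT, 13.7% in KO) and mt-Nd6 in the high polysome (5.31% and 5.11%). mt-Nd4 is highest in the monosome. Each message is compared with itself between fractions, since shares of different messages are not comparable with each other.

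Loss of Ddx6 was accompanied by lower relative levels of the mitochondrial mRNAs in the monosome and low polysome. The summed level was 15340 ± 3241 CPM in the WT and 7461 ± 1714 CPM in the KO monosome (SD, n = 3), and the lowest WT library (11800) was above the highest KO library (9411). In the low polysome it was 2806 ± 523.9 and 1729 ± 116.8 CPM, and the lowest WT library (2234) was again above the highest KO library (1861). In the high polysome it was 888.5 ± 250.6 and 704.1 ± 106 CPM, and the groups overlapped: WT gradient 1, at 601.5 CPM, was below all 3 KO libraries. Both KO clones were below WT in the monosome, clone 1 at 6194 CPM and clone 2 at 9411 and 6778 CPM.

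In the monosome all 7 counted messages were lower in Ddx6 KO by limma, where 20.1% of genes were called lower and 18.6% higher. The median log2 change was -0.998 (range -1.27 to -0.82), against -0.03 for all genes. mt-Nd1 had the greatest difference, from 2355 to 3810 CPM in WT to 1069, 1655 and 1121 CPM in KO, a log2 change of -1.27 (SE 0.20, adjusted p = 5.38e-05). mt-Cytb followed with 1035, 1808 and 1207 CPM in the 3 KO libraries and a log2 change of -1.23 (SE 0.23, adjusted p = 0.0003293). Neither overlapped the WT libraries, whose lowest value for mt-Cytb was 2359 CPM. The smallest difference was that of mt-Co1, at 1657, 2432 and 2012 CPM in KO, with a log2 change of -0.82 (SE 0.24, adjusted p = 0.00903).

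In the low polysome 6 of the 7 were lower in Ddx6 KO (24.3% of genes were called lower and 23.4% higher), with a median over the 7 of -0.74. The calls of mt-Nd4 and mt-Nd6 were lost without WT gradient 2 (adjusted p = 0.09798 and 0.1084), and that of mt-Nd6 also without KO gradient 2 (0.09541) and with no filter (0.05712). mt-Cytb was at 300.2, 317.7 and 293.3 CPM in KO against 508.5 to 744.6 CPM in WT, a log2 change of -1.01 (SE 0.24, adjusted p = 0.001648) without overlap. mt-Nd1 was at 191.8, 186.7 and 197.7 CPM in KO, a log2 change of -0.92 (SE 0.21, adjusted p = 0.001135). mt-Nd5 was at 224.7, 251.4 and 232.9 CPM, a log2 change of -0.74 (SE 0.22, adjusted p = 0.008351). The 3 KO libraries lay close together for these messages, and each of them was below every WT library. mt-Co1 was the one that did not pass: KO gradient 1, from clone 1, stood at 719.1 CPM, within the WT range, and KO gradients 2 and 3 at 442.6 and 512.3 CPM. Its log2 difference was -0.30 (95% interval -0.80 to 0.20, adjusted p = 0.3236).

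In the high polysome 0 of the 7 passed, where 21.1% of genes were called lower and 25.3% higher in Ddx6 KO. The log2 differences were all negative, from -0.51 (mt-Nd2) to -0.13 (mt-Co1), with a median of -0.34, and mt-Nd2 had an unadjusted limma p of 0.03056. With the DESeq2 Wald test 2 of the 7 were called lower, and with edgeR's quasi-likelihood test 0. The count rested on WT gradient 1: without it 5 of the 7 were lower in KO. The shares of all genes called in these other fits are not given here, so these counts cannot be set against them. The 95% intervals of the 7 reached from -1.01 (mt-Cytb) to 0.38 (mt-Co1). mt-Nd6 was at 40.49, 41.59 and 24.66 CPM in KO against 40.15 to 51.03 CPM in WT, so the groups overlapped.

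**Figure D5:**
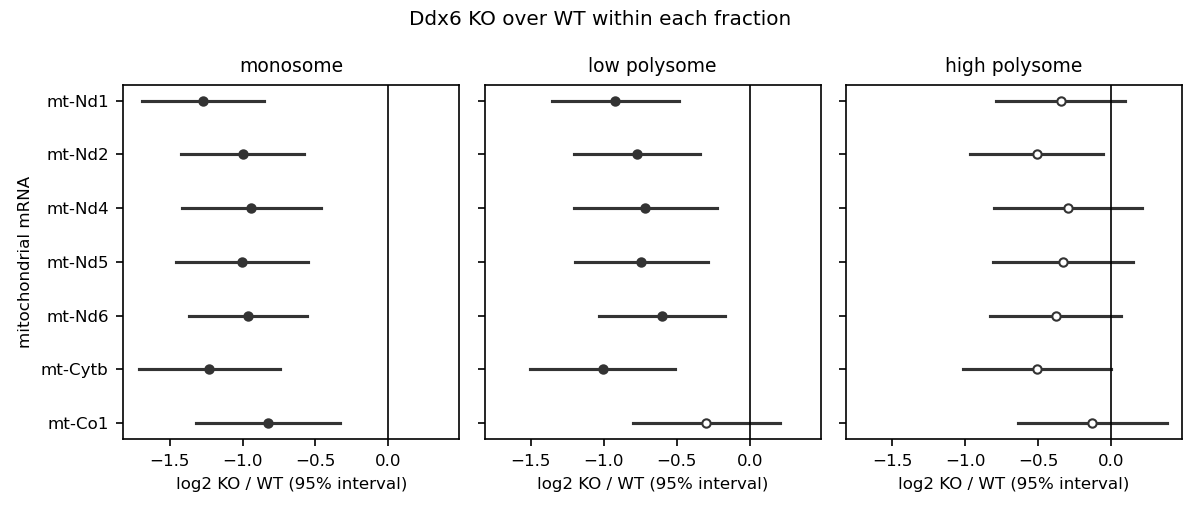
Log2 of Ddx6 KO over WT with its 95% interval for each counted message in monosomes, low polysomes and high polysomes. Filled points passed an adjusted p under 0.05 by limma. All 7 are filled for monosomes, 6 for low polysomes and 0 for high polysomes, and every point is below 0.

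The KO effect on translation level, the high polysome over monosome change in KO less that in WT, asks whether the fall across the gradient differed between the genotypes. For mitochondrial mRNAs this ratio is not a translation level. It was positive for all 7, from 0.49 (mt-Nd2) to 0.93 (mt-Nd1) on the log2 scale with a median of 0.68, against 0.02 for all genes. The sizes rest on single gradients: on leaving out 1 gradient in turn the value ran from 0.56 to 1.25 for mt-Nd1, from 0.26 to 0.81 for mt-Nd2, from 0.27 to 1.03 for mt-Nd4, from 0.453 to 0.996 for mt-Nd5, from 0.23 to 0.81 for mt-Nd6, from 0.266 to 1.138 for mt-Cytb and from 0.17 to 0.98 for mt-Co1. Only 1 of the 7 passed, mt-Nd1, where 10.7% of genes were called higher and 7.09% lower. An unadjusted limma p under 0.05 was reached by 3 of the 7, and the share of all genes at that cutoff is not given here. The log2 ratio of mt-Nd1 was -5.09, -4.63 and -3.90 across the WT gradients and -3.37, -4.17 and -3.29 across those of KO, so that KO gradient 2 fell within the WT range. The KO effect on it was 0.93 (SE 0.29, 95% interval 0.32 to 1.54, adjusted p = 0.03434). That call was lost on leaving out WT gradient 1 (adjusted p = 0.1938), WT gradient 2 (0.08952), KO gradient 1 (0.1036) and also KO gradient 3 (0.2029).

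The 6 other messages gave intervals that reach from -0.13 (mt-Nd2) up to 1.42 (mt-Cytb). A KO effect of the size seen for mt-Nd1 lay inside each of them. For low polysome over monosome 0 of 7 passed in limma, with 0 at an unadjusted p under 0.05 and 0 by edgeR or DESeq2, where 2.31% of genes were called higher and 2.39% lower. The values were again positive, from 0.22 (mt-Cytb) to 0.53 (mt-Co1), with adjusted p between 0.4008 and 0.7591.

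The nuclear partners of these mRNAs, read by cytosolic ribosomes, were distributed otherwise. Of 78 tested nuclear-encoded subunits of the respiratory chain and ATP synthase, 29 (37.2%) were higher and 32 (41%) lower in WT high polysome against monosome, where 28.9% and 32.2% of all genes were, with a median log2 change of -0.12. In WT low polysome against monosome 41 were higher and 9 lower (20.4% and 22.8% of all genes), with a median of 0.46. Their summed level was 40700 ± 1857 CPM in the WT monosome, 54000 ± 5692 CPM among low polysomes and 28650 ± 578 CPM among high polysomes (SD, n = 3). In the KO monosome they stood at 43530 ± 1899 CPM, and 22 of the 78 were higher and 7 lower than in WT (18.6% and 20.1% of all genes), a median of 0.17. Among low and high polysomes the median of the subunits was negative in KO against WT, as it was for the mitochondrial messages. Of the latter, 0 of 7 were called by limma in the high polysome. Among low polysomes 9 nuclear subunits were higher and 37 lower in KO (23.4% and 24.3% of all genes). Their median was -0.36 and their summed level 38510 ± 1562 CPM. Among high polysomes 5 were higher and 35 lower (25.3% and 21.1% of all genes), with a median of -0.37 and a summed level of 22880 ± 1042 CPM. The KO effect on their translation level was negative in the median (-0.60), with 3 higher and 37 lower, where 10.7% of all genes were higher and 7.09% lower. The 7 mitochondrial messages of the same complexes had a median of 0.68. The difference between the lists was not tested.

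Among the nuclear subunits, Cox7a2l, a supercomplex assembly factor, had a KO effect on high polysome over monosome of 0.95 (SE 0.25, adjusted p = 0.01197) and Sdha, the catalytic subunit of complex II, of 0.85 (SE 0.26, adjusted p = 0.02919). Ndufc2, of complex I, was at -1.55 (SE 0.26, adjusted p = 0.0007731) and Ndufa4, now assigned to complex IV, at -1.38 (SE 0.47, adjusted p = 0.04774). Of 82 tested mitochondrial ribosomal proteins, which build the ribosomes that read the mitochondrial mRNAs, 0 were higher and 29 (35.4%) lower in the same comparison (10.7% and 7.09% of all genes), with a median of -0.47. Mrps14 was at -1.41 (SE 0.37, adjusted p = 0.01359) and Mrpl42 at -1.21 (SE 0.18, adjusted p = 0.0002383).

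Factors of mitochondrial transcription, RNA processing and translation (50 tested) had 9 (18%) higher and 2 (4%) lower in it, against the same 10.7% and 7.09% of all genes, with a median of 0.17. The risers with the largest values were Ptcd1, an RNA-binding protein of the organelle, at 1.39 (SE 0.31, adjusted p = 0.005044) and Polrmt, the mitochondrial RNA polymerase, at 1.26 (SE 0.27, adjusted p = 0.004329). The 2 that fell were Coa3 (-0.80, SE 0.20, adjusted p = 0.008547) and Cox14 (-0.74, SE 0.21, adjusted p = 0.02032), both of which act on the synthesis of the mt-Co1 protein. In the monosome itself 1 of the 50 (2%) was higher and 10 (20%) lower in KO, where 18.6% and 20.1% of all genes were. The list median was -0.255, against -0.03 for all genes.

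Long non-coding RNAs, which cytosolic ribosomes are not known to translate as a class, came closest of the lists to the mitochondrial mRNAs in their distribution. Of 447 tested, 5 were higher and 386 (86.4%) lower in WT high polysome against monosome, where 28.9% and 32.2% of all genes were. The list median of the log2 change was -2.35, against -4.16 for the 7 mitochondrial messages. In WT low polysome against monosome 31 of the list were higher and 186 (41.6%) lower, where 20.4% and 22.8% of all genes were. The list median of that change was -0.60, against -2.33 for the 7 messages. In the monosome 27 of the non-coding RNAs were higher and 188 (42.1%) lower in Ddx6 KO (18.6% and 20.1% of all genes, list median -0.60). Among low polysomes 24 were higher and 234 (52.3%) lower (23.4% and 24.3% of all genes, list median -0.84). Among high polysomes 28 were higher and 138 (30.9%) lower (25.3% and 21.1% of all genes, list median -0.62). Their summed level went from 25410 ± 664.7 to 18060 ± 1402 CPM in the monosome (SD, n = 3). The KO effect on high polysome over monosome was higher for 10 (2.24%) and lower for 9 (2.01%) of them, against 10.7% and 7.09% of all genes, with a median of -0.01.

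The 7 counted messages moved together across libraries. The Pearson correlation of log2 CPM between pairs of them was 0.889 to 0.994 over the 18 libraries, which share their fractions and genotypes. Nuclear genes with a similar pattern to their mean were Gm17491 (r = 0.985), 1110038B12Rik (0.983), Zfp57, an imprinting factor (0.983), and Luc7l3, a splicing-related gene (0.983). The most opposed were Bzw2 (r = -0.971) and Ube3c (r = -0.969). For Gm17491 the log2 change of high polysome against monosome was -4.74 in WT and -4.47 in KO. The libraries behind these correlations fall into 3 fractions, and no test was run on them.

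One nuclear copy had enough counts to be tested. Gm13340, a pseudogene of chromosome 2 (22588103 to 22589647, minus strand) that shared 411 windows of 50 bases with mt-Co1, had 1784 counts, 17 to 285 per library. It was lower in WT high polysome against monosome by a log2 change of -3.90 (SE 0.33, adjusted p = 3.94e-09) and in the KO against the WT monosome by -0.95 (SE 0.23, adjusted p = 0.002486). The same 2 changes of mt-Co1 were -3.79 and -0.82. Other comparisons differed. From low to high polysome Gm13340 was not called by limma in WT (-0.61, adjusted p = 0.1807) or in KO (-0.27, adjusted p = 0.5597). There mt-Co1 was called lower in both, at -1.38 and -1.21. In WT low polysome against monosome Gm13340 was at -3.28 and mt-Co1 at -2.41. Which of the 2 loci the reads came from was not tested.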

How the data were processed

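Counts per gene were deposited by the authors as 1 table for 18 libraries (QuantSeq 3′ FWD, 50-base single-end reads). Per the labels and file headers, reads were trimmed with cutadapt 1.14, aligned with STAR 2.5.3a to mm10 and restricted to unique alignments, and counts were made with featureCounts 1.5.3 by strand, on Gencode M14 basic without rRNA. No molecular identifiers were mentioned, so PCR copies are among the counts. Totals were 2543617 to 11474550.

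Genes with at least 3 CPM in at least 3 libraries were kept (12705 genes, 99.6% of counts; the 92 spike-in rows were left out). After TMM scaling (edgeR 4.0.16), 6 group means were fitted to the 18 libraries together by limma 3.58.1 with voom weights (R 4.3.3). Two-sided moderated tests were adjusted by Benjamini-Hochberg over all genes tested, at a threshold of 0.05, in 11 comparisons. The study's methods gave the filter and the interaction term, and TMM, voom and the joint fit were chosen here. Because TMM centres the typical gene at no change, values are relative.

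The members, gene lists and tests were chosen with earlier results of these data known. Named genes were all mitochondrial mRNAs, up to 2 called genes with the largest rise and 2 with the largest fall of each list in the KO effect on high polysome over monosome, the 5 most and 2 least correlated nuclear genes (1 of which is not reported here), and any annotated copy that passed the filter. Single-gradient ratios were log2 of CPM with a pseudocount of 0.5. Gene types and sequences came from Gencode M21 on the same assembly (51274 of 51467 identifiers matched).

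Fractions of 1 genotype with the same number in their labels were taken as 1 gradient, since the study's methods describe collecting all 3 fractions for each sample. The labels do not name the lysate. A block on the gradient was therefore an alternative for comparisons between fractions. The correlation of deviations from the group means between fractions of 1 gradient was -0.181 to 0.485. WT and KO gradients share only a number. Other alternatives were DESeq2 1.42.0 size factors and Wald test, library size alone, TMM without mitochondrial genes, no filter, the edgeR quasi-likelihood test, only the groups compared, and leaving out each gradient.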

Additional observations from a re-analysis of the deposited data

Results flagged for a closer look

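The difference between the genotypes in the fall of mt-Nd1 across the gradient passed the interaction test, at 0.9261 on the log2 scale (limma adjusted p = 0.03434). It was higher than the WT mean in 3 of 3 KO gradients, and it lost its call in 4 of the 6 fits that left out 1 gradient. The spike-in sequences, which no comparison uses, held 28 to 169 counts per library, too few to scale by. The 22 mitochondrial tRNA rows held 58 to 200 counts per library.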

How the results depend on the processing

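Of 1078 values of single messages under an alternative, 1052 kept their direction and side of the threshold, 11 lost and 12 gained a call, and 3 changed sign, none of them called. These were mt-Nd4 in the KO effect on low polysome over monosome (-0.02016 without WT gradient 1, with a range of -0.02016 to 0.4563 on leaving out 1 gradient) and mt-Co1 in KO against WT high polysome (0.05656 without WT gradient 2 and 0.02449 without KO gradient 3, with a range of -0.4704 to 0.05656). The falls between fractions and the lower KO monosome levels were called for all 7 messages under every setting, except mt-Nd6 in KO high against low polysome without KO gradient 3. The KO effect on high polysome over monosome, called higher for 1 message, was called for 0 with library size alone or no filter, and for 0 to 3 on leaving out 1 gradient (3 without WT gradient 3, where mt-Nd5 and mt-Cytb passed too). In KO against WT high polysome, 0 were called lower by limma, 1 with DESeq2 size factors, 2 with the DESeq2 Wald test, 1 with only the groups compared and 0 to 5 on leaving out 1 gradient. With the replicate number as a block that count was 1 (mt-Nd2), though WT and KO gradients share only a number. With the gradient as a block, no count of called messages between fractions or in the KO effects moved. In the low polysome, mt-Nd4 and mt-Nd6 lost their KO call as given above. For the alternative fits the shares of all genes called are not given here, so these counts of messages cannot be set against them. The causes were not tested. Scaling by spike-ins was not run, since no library reached the 1000 counts set for it.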

Other observations

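The mitochondrial tRNA genes, which lie between the mRNAs in the precursor, gave few counts. Their summed level was 36.6 ± 9.25 CPM in the WT monosome, 12.98 ± 2.55 CPM among low polysomes and 9.12 ± 1.96 CPM among high polysomes, and 21.2 ± 2.46, 10.6 ± 0.918 and 8.84 ± 1.33 CPM in Ddx6 KO (SD, n = 3). The order of fractions was that of the mRNAs, with a smaller spread between them. The lowest WT monosome library (27.9 CPM) was above the highest KO monosome library (24.1 CPM). These counts rest on at most 200 reads per library and were not tested.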
